A study of Arabidopsis thaliana with 12 samples.

Results

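Nuclear genes for proteins of the plastid ribosome were described across 12 expression arrays of Arabidopsis thaliana. The 5 genes were taken by locus, as the rows of the deposited table that the platform annotation gives to AT3G13120 (row 1011), AT1G64510 (row 1284), AT3G54210 (row 1739), AT5G65220 (row 1081) and AT1G29070 (row 511) alone. They are 5 of the 692 rows that carry a single gene, in a table of 3439 rows. The proteins are named here from general knowledge as PRPS10, PRPS6, PRPL17, PRPL29 and PRPL34, in the order of the loci above, because the annotation tables used here give these loci no symbol.

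The arrays measured total RNA of wild-type plants, ecotype Columbia 0. The water group (6 arrays) was kept for 8 h in water. The treated group (6 arrays) received staurosporine (Staurosporin in the labels) at 2 µM for 4 h, followed by ascorbate (Ascorbat in the labels) at 25 mM and pH 5.5 for 4 h. Staurosporine blocks many protein kinases. Ascorbate, or vitamin C, is an antioxidant of plant cells. Both compounds, their order and the acid solution were given only together, so their parts in a difference cannot be told apart. The labels give neither the tissue nor the origin of the replicates, so the p-values measure the spread between these arrays, which may be technical. Of 16 leaf and root marker genes listed for a check of the tissue, 0 lay on a row with a single gene. Rows shared by several genes held some of them, in 2 rows, which were not used, so the tissue was not checked here.

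The plastid ribosome is of the bacterial type and makes the proteins encoded in the plastid genome, among them core subunits of both photosystems and the large subunit of Rubisco. Its RNAs and some of its proteins are encoded in the plastid, and the other proteins, including these 5, are made in the cytosol and imported. PRPS10 and PRPS6 belong to the small subunit, which reads the messenger RNA, and PRPL17, PRPL29 and PRPL34 belong to the large subunit, which forms the peptide bond. Fewer cells with plastids that make this machinery and less of its RNA in each cell cannot be told apart on these arrays.

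The deposited values are linear intensities on the authors' own scale, without a unit. The mean of an array lay between 0.857 and 1.04, and 10.3% to 15.2% of its values were listed at exactly 0. What a 0 stands for is not stated in the labels or the table, and signal over background is unknown. Precision is limited by the 6 arrays available for each group. Over the whole table, 1131 of 3439 rows (32.9%) passed limma at an adjusted p under 0.05, of which 573 (16.7% of rows) were higher and 558 (16.2%) lower in the treated group. Without scaling between arrays, 421 rows were higher and 654 lower (19.0%). Within a group, the deviations of arrays with adjacent replicate numbers (1 and 2, 3 and 4, 5 and 6) correlated between -0.09 and 0.64, and those of other arrays between -0.40 and -0.20. The labels do not explain this. Each pair of adjacent numbers is called a set below, and results are given by set where the sets differ.

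Of the 5 genes, 4 could be read, and these were not all called alike. Their fold changes were not tested against each other. With group as the only term, PRPS10 fell after treatment (1.56-fold), PRPL17, PRPL29 and PRPL34 did not pass the test, and no level could be read for PRPS6. Thus 1 of the 4 genes that could be read passed, and it was lower, where 16.2% of all rows were called lower and 32.9% were called in either direction. With the replicate number also in the model as a block, which pairs arrays of the same number, 0 of these genes passed (limma adjusted p 0.0865 for PRPS10). Over the whole table that fit called 1252 of 3439 rows, more than the fit without the block, and 17.4% of rows were called lower. A count of 0 or 1 among so few genes does not set them apart from the table as a whole. The water and treated arrays overlapped in 5 of 5 genes, where PRPS6 overlapped by its values of 0. The groups did not overlap in 19.8% of all rows, so an overlap in so few genes does not set them apart either. The plot of the intensities on each array shows every value of the 5 genes.

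**Figure D1:**
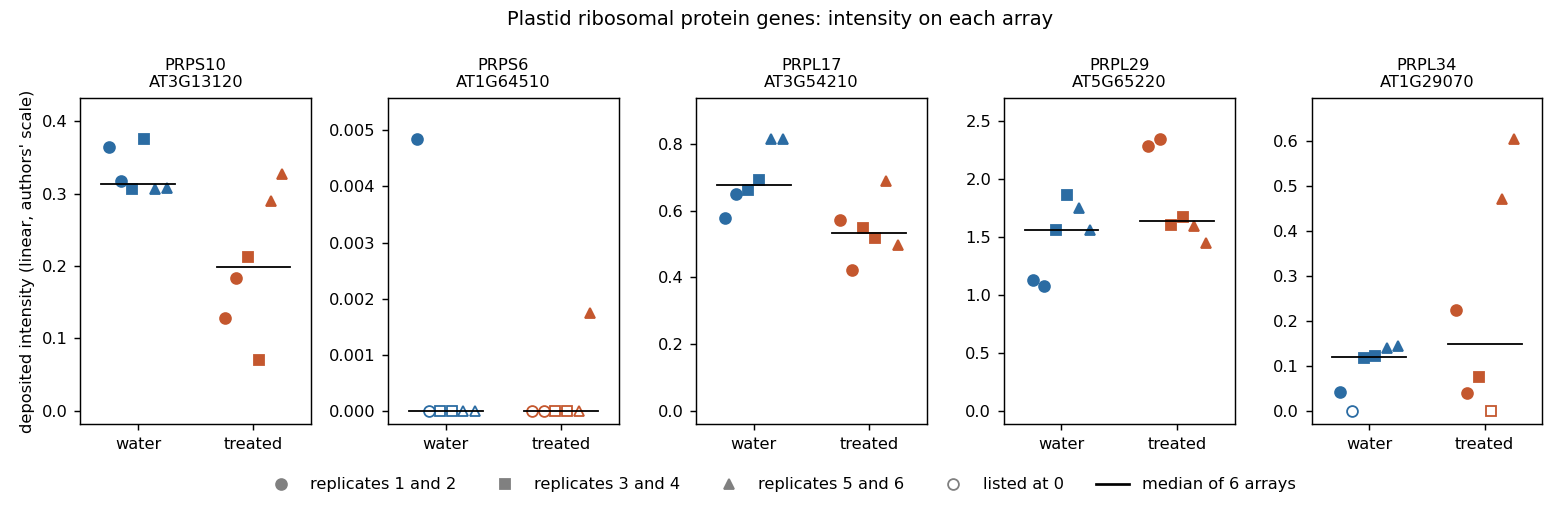
Deposited intensity (linear, authors' scale, a separate axis for each gene) of the 5 plastid ribosomal protein genes on the 6 water and the 6 treated arrays. Symbols mark pairs of adjacent replicate numbers, open symbols are values listed at 0, and lines are group medians. As deposited, without scaling between arrays, PRPS10 was lower than every water array on 5 of 6 treated arrays. PRPS6 was listed at 0 on 10 of 12 arrays.

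Of the small subunit, PRPS10 is the plastid counterpart of a protein in the head of the bacterial small subunit. In Escherichia coli this protein also takes part in transcription antitermination. In water its intensity was steady, with a lowest value of 0.307, a median of 0.313 and a highest value of 0.376. After treatment the lowest value was 0.0708, the median 0.198 and the highest 0.327. The treated arrays spread far more widely, with a coefficient of variation of 47.7% against 9.58% in water. On 5 of 6 treated arrays the deposited intensity lay below the lowest water array, and only treated replicate 6 lay within the water range. After normalization treated replicate 3 (-1.83) also lay within the water range, from -1.91 to -1.33.

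The means were 0.330 ± 0.0316 in water and 0.202 ± 0.0964 after treatment (SD, n = 6 each). On the normalized log2 scale PRPS10 fell by 0.65 ± 0.202 (SE), with a 95% interval from -1.09 to -0.20 and an adjusted p of 0.0299 in limma. With the replicate number as a block the adjusted p in limma was 0.0865, in a fit that called 17.4% of all rows lower. When the 2 arrays of a set were averaged before the test (3 against 3), it was 0.0943, in a fit that called 5.29% of all rows lower. The call also depended on the scaling, since the adjusted p in limma was 0.0646 with the intensities as deposited and 0.0583 with median centring. It was 0.170 with the sets as a random block and 0.0742 in the exact rank-sum test. The adjusted p in limma was also above the threshold without water replicate 1 (0.0581), 3 (0.0577) or 4 (0.0651) and without treated replicate 1 (0.0583) or 4 (0.0510).

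The values of PRPS10 are given by set, although a dependence of its difference on the set was not shown. In replicates 1 and 2 the mean intensity was 0.341 in water and 0.156 after treatment, a ratio of 0.457. In replicates 3 and 4 it was 0.341 and 0.142, a ratio of 0.415. In replicates 5 and 6 the means were 0.308 and 0.309, a ratio of 1.003. So in deposited intensity the 4 lowest treated arrays were those of replicates 1 to 4. The remaining pair stood at the level of its water pair. After normalization this order changed, since treated replicate 3 was the highest treated array (-1.83). Replicates 5 and 6 then differed by -0.14 between the groups on the log2 scale. A limma F test over all rows of whether the difference depends on the set, chosen after the data had been examined, gave an adjusted p of 0.507 for PRPS10, so a difference between the sets was not shown. Without replicates 5 and 6 the log2 fold change of PRPS10 was -0.999 (limma adjusted p 0.0407), without replicates 3 and 4 it was -0.46 (0.105), and without replicates 1 and 2 it was -0.52 (0.216).

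PRPS6 is the counterpart of a protein on the platform of the bacterial small subunit, where in Escherichia coli it pairs with the protein S18. Its row was listed at 0 on 5 of 6 water arrays and on 5 of 6 treated arrays. The exceptions were water replicate 1 at 0.00485 and treated replicate 6 at 0.00175. Both lie below 0.0157, the 1st percentile of all positive intensities, which was used as the floor for values of 0. No level and no difference between the groups can be read from this row. It is 1 of 69 rows with a single gene that were listed at 0 on at least 10 arrays.

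Of the large subunit, PRPL17 is the counterpart of a protein that in bacteria lies near the exit of the tunnel through which the new chain leaves. Its intensity in water had a lowest value of 0.579, a median of 0.677 and a highest value of 0.816. After treatment it had a lowest value of 0.423, a median of 0.533 and a highest value of 0.688. On 5 of 6 treated arrays its deposited intensity lay below the lowest water array, and treated replicate 5 lay within the water range. After normalization only treated replicates 2 (-1.22) and 6 (-1.14) lay below the lowest water array (-0.91). In 6 of 6 pairs of the same replicate number the treated array had the lower deposited intensity, and after normalization in 5 of 6.

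The means of PRPL17 were 0.702 ± 0.0949 in water and 0.541 ± 0.0884 after treatment (SD, n = 6 each). Its log2 fold change was -0.28 ± 0.137 (SE), with a 95% interval from -0.58 to 0.03 and an adjusted p of 0.153 in limma, so it did not pass. With the intensities as deposited, without scaling between arrays, the log2 fold change was -0.38 and the adjusted p in limma was 0.0356, so the call depends on the scaling. That fit called 19.0% of all rows lower. Among these genes PRPL17 varied least over the sets, with ratios of treated to water means of 0.808, 0.788 and 0.728, and its adjusted p in the F test of a dependence on the set was 0.719. Its spread within groups was also small, with a residual SD of 0.243 on the log2 scale, at the 24.4th percentile of all rows.

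PRPL29 is the counterpart of a protein at the tunnel exit of the bacterial large subunit, next to the site where, in Escherichia coli, factors that meet the new chain dock. Its intensity in water had a lowest value of 1.08, a median of 1.56 and a highest value of 1.86. After treatment it had a lowest value of 1.45, a median of 1.63 and a highest value of 2.34. Treated replicates 1 and 2 lay above every water array, and the other 4 treated arrays lay within the water range. The means were 1.49 ± 0.321 and 1.82 ± 0.386 (SD, n = 6 each). The log2 fold change was 0.29 ± 0.186 (SE), with a 95% interval from -0.12 to 0.70 and an adjusted p of 0.271 in limma.

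For PRPL29 the difference between the groups depended on the set. Water replicates 1 and 2 stood at 1.13 and 1.08, and treated replicates 1 and 2 at 2.28 and 2.34. The ratio of the means was 2.10 in this set, where water lay below the other water arrays and treatment above the other treated arrays. In replicates 3 and 4 the ratio was 0.957, and in replicates 5 and 6 it was 0.920. The F test in limma of a dependence on the set gave an adjusted p of 0.00625 for PRPL29, and 15.8% of all rows passed this test. If the 2 arrays of a set share an RNA sample, their spread understates the error and this p is too small. Without replicates 1 and 2 the log2 fold change was -0.07 (limma adjusted p 0.522).

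PRPL34 is the counterpart of a small basic protein of the bacterial large subunit. It was listed at 0 on 1 array of each group, so single values are given and no mean. In water it was listed at 0 in replicate 2, stood at 0.0413 in replicate 1, and lay between 0.117 and 0.145 in replicates 3 to 6. After treatment it was listed at 0 in replicate 4, stood at 0.0394 in replicate 2, 0.0751 in replicate 3 and 0.224 in replicate 1, and reached 0.471 and 0.604 in replicates 5 and 6. Treated replicates 1, 5 and 6 were therefore above every water array and the other 3 treated arrays were not.

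The log2 fold change of PRPL34 was 0.96 ± 0.910 (SE), with a 95% interval from -1.04 to 2.97 and an adjusted p of 0.475 in limma, so neither a fall by 1 nor a rise by 2 on the log2 scale lies outside the interval. This value depends on the floor, since the 0 of each group was set to it. With values of 0 as missing, the log2 fold change was 1.12 ± 0.616 (SE) and the adjusted p in limma 0.178. By set, the log2 fold changes were 2.15, -1.56 and 2.30, where the floor enters the first and the second. The residual SD of PRPL34 was 1.64 on the log2 scale, at the 96.4th percentile of all rows, against a median of 0.361. The F test of a dependence on the set gave an adjusted p of 0.203 in limma. The plot of log2 fold changes with their intervals sets the 4 genes that could be fitted beside each other.

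**Figure D2:**
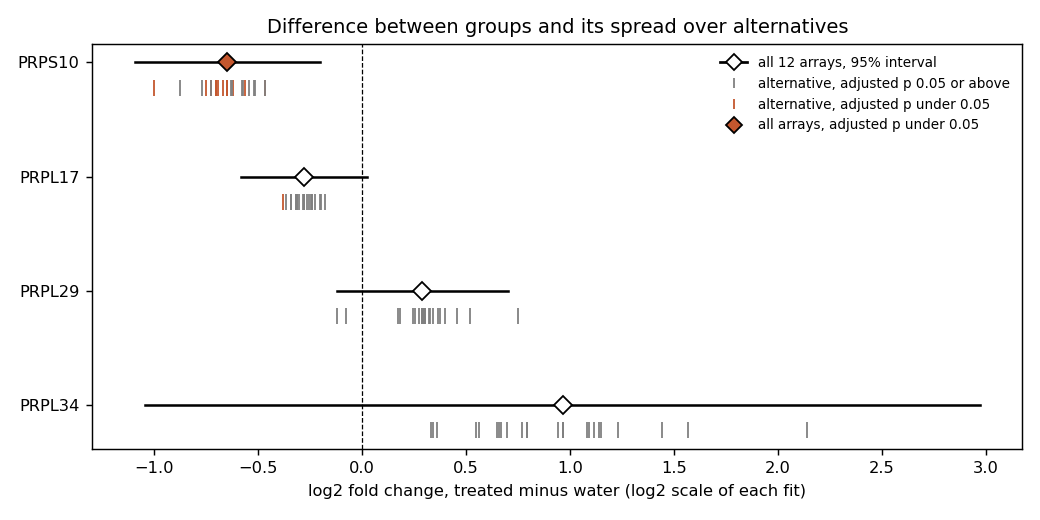
Log2 fold change, treated minus water, of 4 plastid ribosomal protein genes. Diamonds are the fit on all 12 arrays with 95% intervals, filled where the adjusted p was under 0.05, and ticks are the alternative settings, coloured where the adjusted p was under 0.05. The interval of PRPS10 lies below 0, from -1.09 to -0.20, and that of PRPL34 runs from -1.04 to 2.97. These intervals take the 12 arrays as independent. With adjacent replicates as a random block the adjusted p of PRPS10 in limma was 0.170.

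A list of 41 nuclear genes for plastid ribosomal proteins held 1 more gene with a row of its own, AT4G01310 (PRPL5), the counterpart of a protein in the central protuberance of the bacterial large subunit. In water its intensity had a lowest value of 0.404, a median of 0.500 and a highest value of 0.598. After treatment it had a lowest value of 0.285, a median of 0.454 and a highest value of 1.05. Treated replicates 5 and 6 lay above every water array, and treated replicates 2 and 4 lay below every water array. After normalization treated replicates 4 (-1.455) and 5 (-0.699) lay within the water range, from -1.463 to -0.671. Its log2 fold change was 0.10 ± 0.269 (SE), with an adjusted p of 0.822 in limma.

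PRPL5 also differed in sign over the sets, with log2 fold changes of -0.27, -0.44 and 1.02, and its adjusted p in the F test of a dependence on the set was 0.1002. With it, 6 of the 41 listed genes had a row of their own, and 5 of these could be read. With group as the only term, 1 of the 5 fell, 0 rose and 4 did not pass. In that fit 16.2% of all rows were called lower and 16.7% higher. With the replicate number as a block, 0 of the 5 passed, in a fit that called 1252 of 3439 rows. The median log2 fold change of the 5 genes was 0.10, which is the value of PRPL5, and that of all rows was 0.00. Quantile normalization leaves little room for a shift of the median of all rows, so it is no independent reference. None of the 18 listed genes of plastid translation factors and ribosome assembly, and none of the 20 listed genes of plastid transcription, had a row of its own. Rows shared by several genes held some of the 18, in 4 rows, which are not named here. A search of the symbols and synonyms in the gene table for other ribosomal proteins found 44 genes, and 0 of them had a row of their own. It misses genes that, like those described here, carry no such name. Other ribosomal protein genes may therefore lie on rows with a single gene. So the fall of PRPS10 was not compared here with genes of the cytosolic or mitochondrial ribosome.

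**Figure D3:**
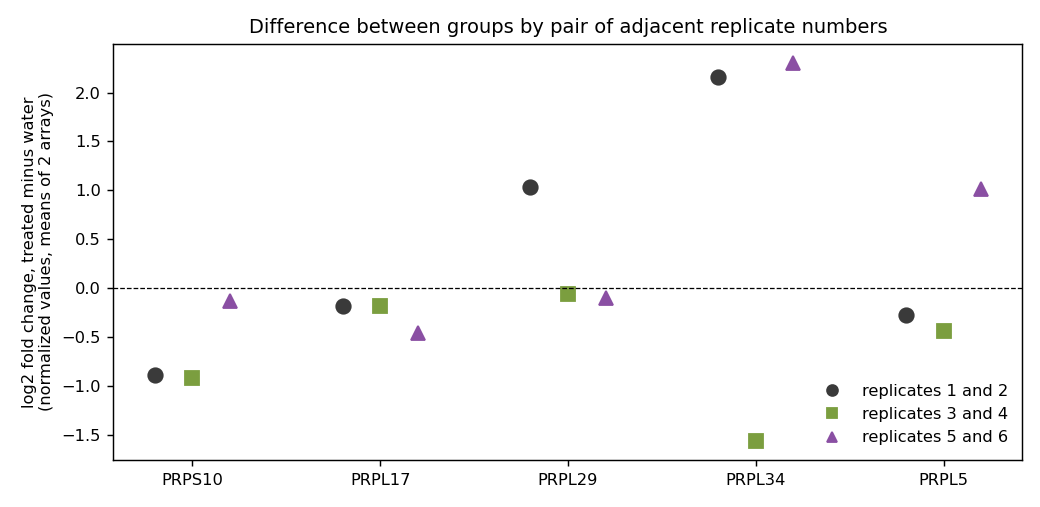
Log2 fold change, treated minus water, on normalized values for each pair of adjacent replicate numbers (means of 2 arrays), for 4 of the 5 genes and for PRPL5. PRPS10 and PRPL17 lie below 0 in 3 of 3 pairs, whereas PRPL29 lies at 1.03 in replicates 1 and 2 and near 0 in the others, and PRPL34 and PRPL5 lie on both sides of 0.

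The sign of the normalized difference was the same in 3 of 3 sets for PRPS10 (-0.89, -0.91 and -0.14) and for PRPL17 (-0.18, -0.18 and -0.46). Of all rows, 52.8% had the same sign in the 3 sets, and of the rows that were not called, 30.6% did. The plot of differences by set shows these values. In the set of replicates 5 and 6, PRPL34 and PRPL5 were higher after treatment, and PRPS10 was closest to its water level.

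Ratios between genes within an array do not depend on a factor common to that array. They were formed for PRPS10, PRPL17 and PRPL29, which were above 0 on all 12 arrays, and are read only as a change between groups, since the intensities of different rows cannot be set against each other. The log2 ratio of PRPL17 to PRPL29 lay between -1.43 and -0.72 in water and between -2.47 and -1.21 after treatment. It was lower after treatment in 6 of 6 pairs of the same replicate number, and 5 of 6 treated arrays lay below every water array. Its mean differed by -0.68 between the groups, and by -1.39, -0.29 and -0.36 in the 3 sets.

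The log2 ratio of PRPS10 to PRPL29 lay between -2.51 and -1.63 in water and between -4.56 and -2.15 after treatment, and its mean differed by -1.17. By set the differences were -2.22, -1.41 and 0.12, so replicates 5 and 6 did not show it. The log2 ratio of PRPS10 to PRPL17 lay between -1.41 and -0.67 in water and between -2.87 and -0.61 after treatment, and its mean differed by -0.49. By set these differences were -0.83, -1.12 and 0.48. This difference rests in large part on treated replicate 4, since it was -0.23 without that array and -0.17 without replicates 3 and 4 of both groups. Without replicates 1 and 2 it was -0.32, and without replicates 5 and 6 it was -0.98. Under the same omissions of a set, the ratio of PRPS10 to PRPL29 differed by -0.64 without replicates 1 and 2 and by -1.81 without replicates 5 and 6, and the ratio of PRPL17 to PRPL29 by -0.32 without replicates 1 and 2. The groups overlapped in each of the 3 ratios. No test was made on the ratios, which are given as a description.

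**Figure D4:**
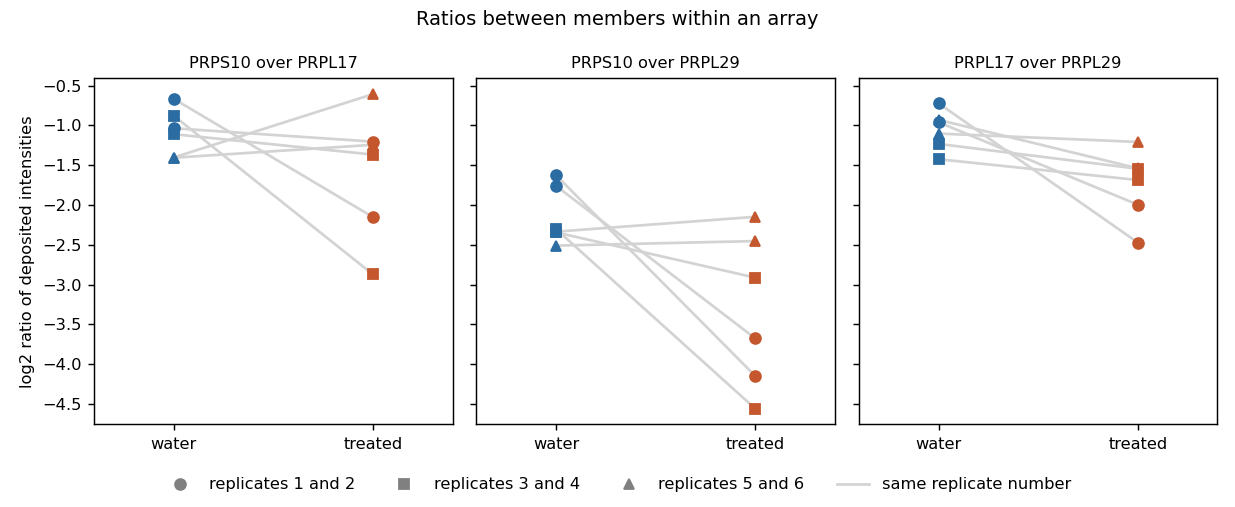
Log2 ratio of deposited intensities between 2 plastid ribosomal protein genes on the same array, in water and after treatment. Lines join arrays of the same replicate number and symbols mark pairs of adjacent numbers. The ratio of PRPL17 to PRPL29 is lower after treatment along 6 of 6 lines, and the other ratios are lower along 4 of 6.

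Across the 12 arrays, the genes did not share 1 pattern. Pearson's r of normalized log2 values was 0.26 between PRPS10 and PRPL17, -0.38 between PRPS10 and PRPL29, 0.11 between PRPS10 and PRPL34, and 0.14 between PRPL17 and PRPL29. It was 0.04 between PRPL17 and PRPL34 and 0.43 between PRPL29 and PRPL34. With PRPL5, r was 0.69 for PRPL34, 0.42 for PRPS10, -0.11 for PRPL17 and -0.11 for PRPL29. With the group means removed, r was 0.70 between PRPS10 and PRPL5, 0.69 between PRPL34 and PRPL5, 0.49 between PRPL17 and PRPL29 and 0.47 between PRPS10 and PRPL34. The other 6 pairs then lay between -0.19 and 0.35. These values describe 12 arrays that share groups and sets, and they carry no test.

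Other rows were closer to each gene. Among 591 other rows with a single gene above 0 on at least 10 arrays, the 3 most like PRPS10 were AT3G26730 (r = 0.88 over 12 arrays), AT1G76240 (0.86) and AT5G25990 (0.85). The 3 most like PRPL17 were AT1G31220 (0.86), GH9B12 (0.85) and AT1G32520 (0.84). The 3 most like PRPL29 were AT1G77730 (0.85), AT4G27250 (0.83) and AT3G06570 (0.79). The 3 most like PRPL34 were IQD22 (0.86), AT4G00870 (0.84) and AT5G04600 (0.79). None of the 12 is among the 41 listed genes of the plastid ribosome, of which only 6 had a row of their own. The highest of so many values is large in part by the choice, and arrays of a set share deviations, so these likenesses are a description.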

How the data were processed

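The authors deposited 1 table of linear intensities, with a column for each array. Their scanning, background correction and scaling are not given in the sources used here. Groups and replicate numbers came from the sample titles. For log2, each 0 was replaced by 0.0157 (the 1st percentile of positive intensities), and lower positive values were kept. The array medians then ranged over 0.47, above the limit of 0.1 for a table already normalized, so quantile normalization followed, which cannot show a shift shared by most RNAs. The groups were compared with limma 3.58.1 in R 4.3.3, with a term for group alone, and p-values were adjusted over 3439 rows (Benjamini-Hochberg) at a threshold of 0.05. The fit was tested on simulated data in which the arrays were independent. That test therefore does not cover the likeness of arrays within a set. Plots were made in Python 3.11.15 with matplotlib 3.10.9.

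Of 3439 rows, 692 had a single gene in the platform annotation, which can be old, 870 had several and 1877 were not listed. Of the single genes, 690 matched a locus of TAIR10.1. Besides the 5 genes, the text names measured members of the gene lists, at most 4 a list by smallest p, and for each gene above 0 on at least 10 arrays the 3 most correlated rows. The genes, lists, tests and alternatives were chosen with earlier results of these data known. Deviations of arrays with the same number in both groups correlated between 0.30 and 0.43, each above 0.1, so the numbers were taken to pair the arrays, and the main fit was kept without the block, as an alternative carries it. The pairing comes from this check alone. Alternatives were other scalings, floors, a pseudocount, a filter, blocks, means of sets, an exact rank-sum test, a variance model with trend and arrays left out. Leaving out a set, and the F test of a dependence on the set, were added after the data were examined.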

Additional observations from a re-analysis of the deposited data

How the results depend on the processing

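PRPS10 was lower after treatment under 28 of 28 alternatives but kept its call under 13. Its log2 fold change, where the call was lost, was -0.87 as deposited and -0.77 with median centring. It was -0.65 with the replicate block (limma adjusted p 0.0865), on means of adjacent replicates (0.0943), with adjacent replicates as a random block (0.170) and in the exact rank-sum test (0.0742). It was -0.73 with replicates 1 to 3 alone (0.168), -0.58 with replicates 4 to 6 alone (0.272), -0.52 without replicates 1 and 2 and -0.46 without replicates 3 and 4. With 1 array left out it lay between -0.75 and -0.51, and 5 of 12 such fits lost the call. In all these settings 0 of the 5 listed genes that could be read were called, except as deposited, where PRPL17 was called (-0.38) in place of PRPS10. Over the whole table these settings called between 418 and 1252 of 3439 rows, so a count of 0 does not set the genes apart. With 1 array left out 0 to 1 of the 5 were called, in fits that called 1010 to 1158 of all rows. For PRPL29 the sign turned with replicates 4 to 6 alone (-0.12) and without replicates 1 and 2 (-0.0745), and with 1 array left out it lay between 0.17 and 0.38. PRPL34 stayed positive and uncalled, between 0.33 and 2.14. It had no value with the filter on dim rows, which removes its row. PRPL5 turned negative as deposited (-0.0665), with replicates 1 to 3 alone (-0.23), without replicates 5 and 6 (-0.38) and in 1 of 12 fits with an array left out (between -0.11 and 0.23). The ratio of PRPL17 to PRPL29 differed by -0.32 between the groups without replicates 1 and 2, and that of PRPS10 to PRPL17 by -0.23 without treated replicate 4 and by -0.17 without replicates 3 and 4. The causes were not tested, and sets of fewer arrays also leave fewer values. The replicate block changed no other call of these genes. The 1131 changed rows became 418 on means of adjacent replicates, 753 with the random block, 699 with replicates 1 to 3 alone and 621 with replicates 4 to 6 alone. No alternative could be run for the lists of plastid translation and transcription, which had no row of their own. Signal over background is unknown, so what the dim values of PRPL34 and PRPS6 can show is not known.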

Other observations

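Among 10 groups of 6 normalized values, those of PRPS10, PRPL17, PRPL29, PRPL34 and PRPL5 in water and after treatment, 0 held an array far from the other 5, where chance gives about 5% of groups. That share takes the arrays as independent, and so few groups show little. The check misses arrays that lie apart together. For PRPL29, water replicates 1 and 2 (0.01 and -0.05) were not flagged, although the other water arrays lay between 0.70 and 0.96.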
